A study of Mus musculus with 9 samples.

Results

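Mitosis and G2/M genes are those that cells express as they prepare to divide and divide, and 39 of them were followed here in Hepa1-6, a mouse hepatoma cell line, after treatment with either of a pair of pleuromutilin antibiotics. The 39 genes were chosen by name as cyclins, mitotic kinases, checkpoint, kinetochore, spindle and cytokinesis genes, topoisomerase II alpha and the proliferation marker Ki-67, and were found in the deposited tables by symbol and by the protein-coding biotype. All 39 were present among 56748 listed genes, and all 39 passed the filter on low counts that left 14510 genes to be tested. The study treated Hepa1-6 cells for 2 days with 37 µg/mL lefamulin or 37 µg/mL tiamulin, and each group, the control included, gave 3 RNA-Seq libraries. The sample labels describe the control as given no treatment, whereas the methods of the study name a vehicle. Nothing in the labels says whether the 3 libraries of a group came from separate cultures, so the p-values measure the spread between these libraries, which may be technical. Hepa1-6 is a single established line, so the values stand for that line alone.

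In the cell cycle, entry into mitosis is driven by the kinase Cdk1 bound to B-type cyclins, and the genes of this phase are switched on together as cells pass from S phase to G2. Many of their promoters carry a CCAAT box, bound by NF-Y, and a cell cycle genes homology region (CHR), bound by the MuvB core, which joins a repressor complex (DREAM) in resting cells and an activating complex with B-Myb and FoxM1 in cycling cells. Such transcripts are widely used as markers of proliferating cells. Lefamulin and tiamulin share the tricyclic pleuromutilin core and differ in the amine that ends their thioether side chain, an amino- and hydroxy-substituted cyclohexyl ring in lefamulin and a diethylaminoethyl chain in tiamulin. They were given at the same concentration by mass and for the same time, which does not make their effects on the cells equal.

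Total counts on genes lay between 15568887 and 18008105 per library. Tiamulin 2 stood apart from the other libraries of its group. The chi-square per degree of freedom between 2 libraries was 18.1 and 20.6 for tiamulin 2 against tiamulin 1 and 3, and between 2.88 and 7.57 for the other pairs within a group. The deviations of the 39 genes from their group means varied with the GC content of their transcripts in some libraries. The Spearman rho over the 39 genes was 0.69 for control 1, -0.79 for control 2 and, for the tiamulin libraries 1 to 3, -0.57, 0.79 and -0.64, against 0.50, -0.50, -0.54, 0.70 and -0.58 over 10054 genes. It was nearer 0 in control 3, at 0.25, and in the lefamulin libraries 1 to 3, at 0.43, -0.27 and -0.24, against 0.026, 0.19, -0.15 and -0.064 over 10054 genes. These are descriptions across genes of 1 library each, which share that library. The GC content of the 39 genes ran from 37.7% to 56.1% with a median of 46.3%, against a median of 49.2% over tested genes, and the calls among the 39 genes are therefore given also with offsets for GC content and transcript length and without tiamulin 2. Among the markers of a hepatoma line, Afp, Trf and Alb had the highest counts, and Serpina1a was at 0 in every library. The summed FPKM of the 10 hepatocyte and hepatoma markers was 742 to 811 in controls, 713 to 756 under lefamulin and 573 to 624 under tiamulin. Among 8 blood cell markers, Cd3e, Adgre1 and Hbb-bs were at 0 in all 9 libraries, and the summed FPKM of the 8 was 7.24 to 7.56, 9.55 to 13.8 and 11.7 to 16.4 in the 3 groups in the same order. Cd68, which macrophages and other cells express, made up most of that sum, with 6.09 to 7.05, 7.95 to 12.4 and 11.2 to 15.7 FPKM. Fibroblast markers, of which Dcn had the highest counts, summed to 255 to 269, 194 to 203 and 180.2 to 194 FPKM, endothelial markers to 0.198 to 0.267, 0.402 to 0.628 and 0.441 to 0.723 FPKM, and cholangiocyte markers to 29.6 to 36.8, 35.4 to 41.0 and 32.8 to 40.7 FPKM. Dcn made up nearly all of the fibroblast sum, while Col1a1 had 3 to 12 counts per library. Sox9 made up most of the cholangiocyte sum, while Krt19 had 0 to 5 counts per library. The part of the markers in the results was not tested.

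The 39 genes were expressed at moderate levels per unit length in Hepa1-6. Top2a, the topoisomerase that untangles sister chromatids, had the highest mean in controls, 78.8 ± 2.72 FPKM (SD, n = 3). Cdc20, the activator of the anaphase-promoting complex, came next with 46.9 ± 1.29 FPKM, and Mki67, which encodes the Ki-67 protein that coats mitotic chromosomes, had 46.4 ± 0.982 FPKM. The means of these last 2 genes differed by less than their spread. The lowest levels were those of 3 kinetochore genes, Cenpf with 8.28 ± 0.582, Ndc80 with 7.30 ± 0.512 and Knl1 with 5.62 ± 0.723 FPKM. Top2a kept the highest and Knl1 the lowest place among the 39 genes under both drugs. Together the 39 genes took 0.527% ± 0.00647 of all counts in controls, 0.4997% ± 0.0142 under lefamulin and 0.449% ± 0.00364 under tiamulin (SD, n = 3 each), and the 3 groups did not overlap in this share. In bulk RNA, a smaller share of cells in G2 or mitosis and less of each transcript per cell cannot be told apart.

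Promoters of the genes were read from RefSeq (GRCm38.p6), in windows of 250 bases before and 50 bases after the start of a gene. Windows were found for 33 of the 39 genes, 35 windows in all. Those of Ccna2, Foxm1, Aurkb, Incenp, Kif20a and Tpx2 were not used here. The 6 windows printed here, of Cdk1, Ccnb1 and Ccnb2, Top2a, Mki67 and Hmmr, were chosen after the values were seen, as the engine of mitotic entry, the members with the most counts and a member that did not pass the test under either drug. Each is printed from 250 bases before the start to 30 bases after it, 5′ to 3′ in the direction of the gene, with matches to the CHR (TTTGAA or TTCGAA) and the CCAAT box (CCAAT) on either strand in capitals, so that TTCAAA and ATTGG also stand in capitals. The 2 motifs share no overlapping match in these 6 windows.
Cdk1: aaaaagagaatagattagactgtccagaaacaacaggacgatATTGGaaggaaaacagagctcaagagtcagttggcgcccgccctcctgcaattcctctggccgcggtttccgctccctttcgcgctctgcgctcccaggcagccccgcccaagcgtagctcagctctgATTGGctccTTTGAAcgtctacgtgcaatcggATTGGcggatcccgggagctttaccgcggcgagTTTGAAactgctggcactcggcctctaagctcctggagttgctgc
Ccnb1: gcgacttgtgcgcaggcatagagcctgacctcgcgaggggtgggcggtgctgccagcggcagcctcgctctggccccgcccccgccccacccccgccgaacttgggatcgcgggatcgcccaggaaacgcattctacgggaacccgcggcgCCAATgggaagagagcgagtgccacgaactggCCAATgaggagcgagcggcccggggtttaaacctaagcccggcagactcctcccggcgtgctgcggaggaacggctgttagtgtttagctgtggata
Ccnb2: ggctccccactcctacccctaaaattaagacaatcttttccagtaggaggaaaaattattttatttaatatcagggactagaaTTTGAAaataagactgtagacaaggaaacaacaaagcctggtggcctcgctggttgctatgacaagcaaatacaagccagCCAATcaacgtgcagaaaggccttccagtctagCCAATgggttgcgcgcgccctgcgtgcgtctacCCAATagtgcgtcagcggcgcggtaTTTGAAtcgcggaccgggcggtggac
Top2a: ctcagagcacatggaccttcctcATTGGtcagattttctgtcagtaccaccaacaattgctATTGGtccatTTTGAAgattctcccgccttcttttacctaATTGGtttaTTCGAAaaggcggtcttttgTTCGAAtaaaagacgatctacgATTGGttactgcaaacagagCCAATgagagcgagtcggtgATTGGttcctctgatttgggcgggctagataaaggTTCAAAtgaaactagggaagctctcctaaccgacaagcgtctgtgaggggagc
Mki67: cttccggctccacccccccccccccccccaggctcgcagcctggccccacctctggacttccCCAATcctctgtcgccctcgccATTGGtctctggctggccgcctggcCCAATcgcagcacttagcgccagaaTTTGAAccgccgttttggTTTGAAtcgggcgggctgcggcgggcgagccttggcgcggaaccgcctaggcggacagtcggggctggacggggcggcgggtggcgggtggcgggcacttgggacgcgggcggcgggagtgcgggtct
Hmmr: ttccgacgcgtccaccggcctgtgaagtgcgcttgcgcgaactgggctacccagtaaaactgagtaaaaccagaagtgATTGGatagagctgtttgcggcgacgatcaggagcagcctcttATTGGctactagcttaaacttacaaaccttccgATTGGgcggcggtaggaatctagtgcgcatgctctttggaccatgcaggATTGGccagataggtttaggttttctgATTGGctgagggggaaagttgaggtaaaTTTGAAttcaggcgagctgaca
The Cdk1 window lies at chr10:69352883-69353162 on the minus strand and holds a CHR on each side of a CCAAT box near the start. The Ccnb1 window (chr13:100786457-100786736, minus strand) holds 2 CCAAT boxes and no match to the CHR letters searched, whereas the Ccnb2 window (chr9:70421525-70421804, minus strand) holds 3 CCAAT boxes and 2 CHR matches. The Top2a window (chr11:99024160-99024439, minus strand) has 4 CHR and 6 CCAAT matches, and the windows of Mki67 (chr7:135716350-135716629, minus strand) and Hmmr (chr11:40733408-40733687, minus strand) have 2 and 1 CHR and 3 and 5 CCAAT matches. A match to these letters describes a sequence and is not a measured binding site.

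Over the 35 windows, 29 (82.9%) held a CHR match and 26 (74.3%) a CCAAT box, and 24 (68.6%) held both. Of all 32851 promoter windows of the same length in the reference, 19.2% held a CHR match, 37.4% a CCAAT box and 7.52% both. The first base of the CHR matches lay between 188 bases before and 41 bases after the start, with 28 of 40 matches from 60 bases before to 40 bases after it. Prc1 and Ect2 have 2 windows each, which overlap, so that the same sites are counted in both and the 40 CHR and 57 CCAAT matches are matches in windows and not separate sites. The CCAAT boxes lay farther upstream, with 44 of 57 matches in the 120 bases before the start. Among the 13 windows of genes that fell under tiamulin 9 (69.2%) held a CHR match, and among the 22 windows of the other genes 20 (90.9%) did. CCAAT boxes were in 10 (76.9%) and in 16 (72.7%) of them.

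**Figure D1:**
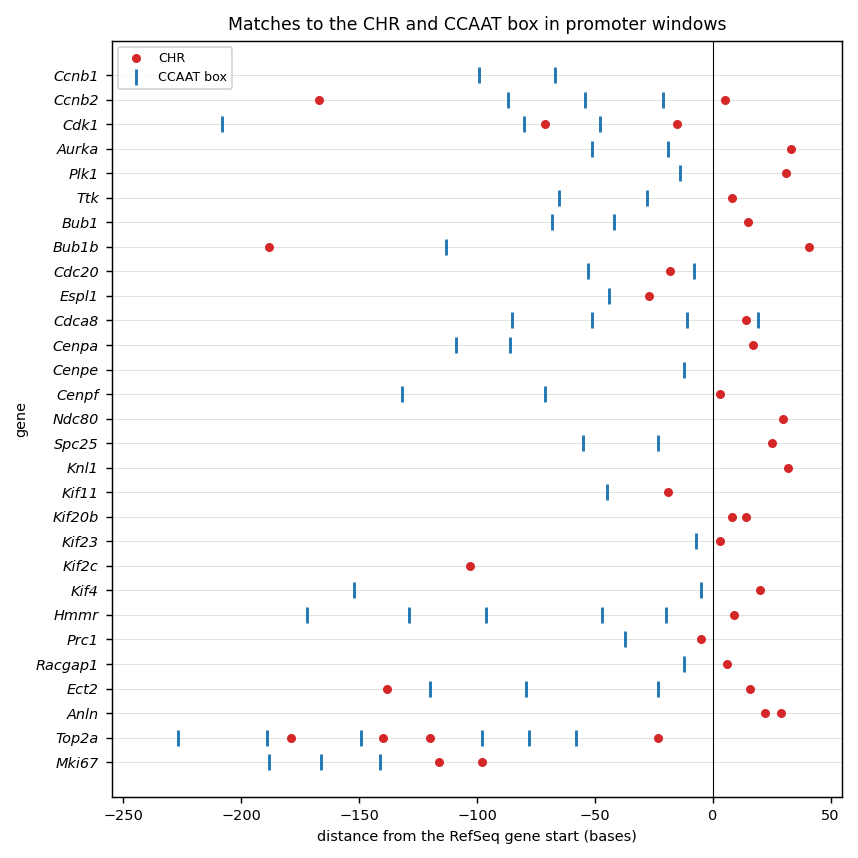
Matches to the CHR (red points) and the CCAAT box (blue bars) in the RefSeq promoter windows of the genes with a match, by the distance in bases of the first base from the gene start. CHR matches gather around the start, 28 of 40 matches within 60 bases before and 40 after it with the overlapping windows of Prc1 and Ect2 each counted, and CCAAT boxes lie upstream, 44 of 57 in the 120 bases before it.

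Tiamulin lowered a set of the mitotic genes by a modest amount. Of the 39 genes, 14 were lower than in controls at an adjusted p below 0.05 and none was higher (edgeR quasi-likelihood test, Benjamini-Hochberg adjustment over 14510 genes). Over all tested genes, 7.34% were lower and 9.08% higher by the same rule. The median log2 fold change of the 39 genes was -0.18, against 0.0034 over all tested genes, and 38 of the 39 values were below 0. Among the 14 lower genes, Cdc20 fell by 13.2%, the least, and Nuf2 fell by 28.4%, the most, in this fit of all 9 libraries without offsets. No gene passed the threshold of the study for a differentially expressed gene, an absolute log2 fold change above 1 with an adjusted p below 0.05, which 1.78% of tested genes passed. For 23 of the 39 genes all 3 tiamulin libraries lay below all 3 controls, as they did for 15.2% of tested genes. At an unadjusted p below 0.05, 24 genes were lower and none higher, as were 13.9% and 15.9% of tested genes. Of the 25 genes that did not pass, 15 had a 95% interval of the log2 fold change that held 0, and the intervals of the 25 ran from -0.49 for Espl1 to 0.18 for Aurka.

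**Figure D2:**
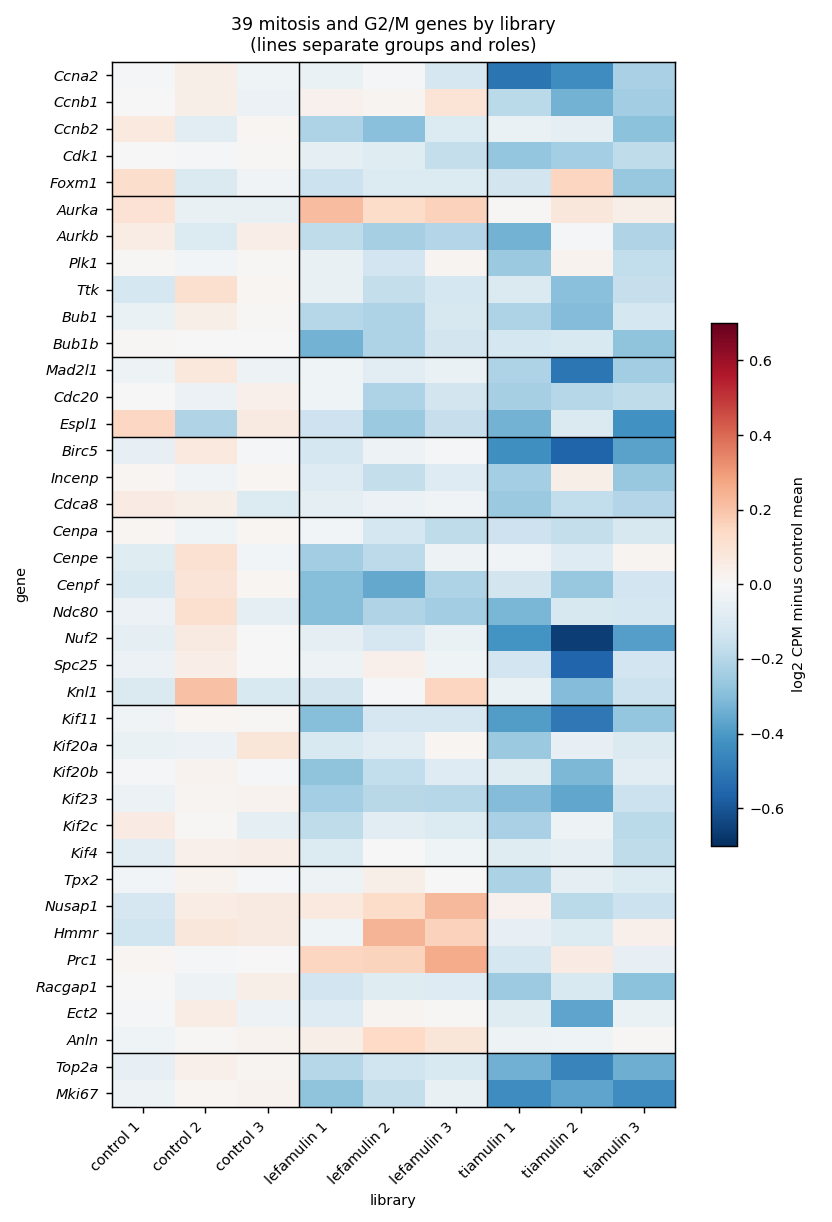
Level of each of the 39 genes (rows, grouped by role from the cyclins at the top to Top2a and Mki67 at the bottom) in the 9 libraries (columns), as log2 CPM minus the mean of the 3 controls, from blue (lower) to red (higher). The 3 tiamulin columns are blue for most rows, and the lefamulin columns are paler, with red at Aurka, Nusap1, Hmmr, Prc1 and Anln.

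The count under tiamulin moved when tiamulin 2 was left out and with offsets for GC content and length, which were applied together and not singly. Without tiamulin 2, 24 of the 39 genes were lower, all 14 among them, with 11.3% of tested genes lower by that fit, and the median was -0.20. With offsets for GC content and length, 28 genes were lower and none higher, against 14.4% of tested genes lower. The 14 calls kept their sign in every alternative, and 10 of them (all but Bub1, Cdc20, Cdca8 and Racgap1) stayed past the threshold when any of the 9 libraries was left out. Bub1 lost its call when any 1 control or lefamulin library or tiamulin 1 was left out, with adjusted p-values of 0.0523 to 0.133. Cdc20 lost it when any 1 control, lefamulin 2 or 3 or tiamulin 1 or 3 was left out (0.0512 to 0.155), Cdca8 when control 1 or 2, any 1 lefamulin library or tiamulin 1 or 3 was (0.0565 to 0.13), and Racgap1 when control 1 or 3 or tiamulin 1 or 3 was (0.0615 to 0.102).

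Lefamulin lowered 3 of the 39 genes, a share near that of all tested genes in the fit without offsets. Cenpf, Bub1b and Kif23 were lower than in controls at an adjusted p below 0.05 and none of the 39 was higher, while 6.00% of tested genes were lower and 7.09% higher. The median log2 fold change was -0.10, against -0.0018 over all tested genes, and 31 of the 39 values were below 0. At an unadjusted p below 0.05, 12 genes were lower and 2 higher, as were 13.1% and 14.1% of tested genes. All 3 lefamulin libraries lay below all 3 controls for 15 genes, as for 18.8% of tested genes, and above them for 4, as for 18.9% of tested genes. None of the 39 passed an absolute log2 fold change of 1, as 1.51% of tested genes did. The 36 other genes had 95% intervals between -0.43 (Ndc80) and 0.33 (Prc1), and 25 of these intervals held 0. The 3 controls are shared by the comparisons of the drugs with control.

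The lefamulin count moved with single libraries more than the tiamulin count did. It was 1 without control 1 or lefamulin 1, 0 without control 2, control 3 or lefamulin 2, and 16 without tiamulin 2, which enters this comparison only through the shared estimate of the spread and the filter on low counts. Those 16 were 14 lower and 2 higher genes, Aurka and Prc1, with 12.7% of tested genes lower and 12.2% higher in that fit. Over all genes 1146 passed without control 1, 1155 without lefamulin 1, 1423 without control 2, 993 without control 3 and 995 without lefamulin 2. With all 9 libraries 871 were lower and 1029 higher. With offsets for GC content and length 14 genes were lower and none higher, against 13.0% of tested genes lower. Cenpf lost its call without control 2 or 3 or lefamulin 2 (adjusted p 0.0544 to 0.0736), Bub1b when any 1 control, lefamulin 1 or 2 or tiamulin 1 was left out (0.0519 to 0.188), and Kif23 when any 1 control or lefamulin library or tiamulin 1 was (up to 0.142). The median stayed between -0.11 and -0.087 when each library in turn was left out.

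**Figure D3:**
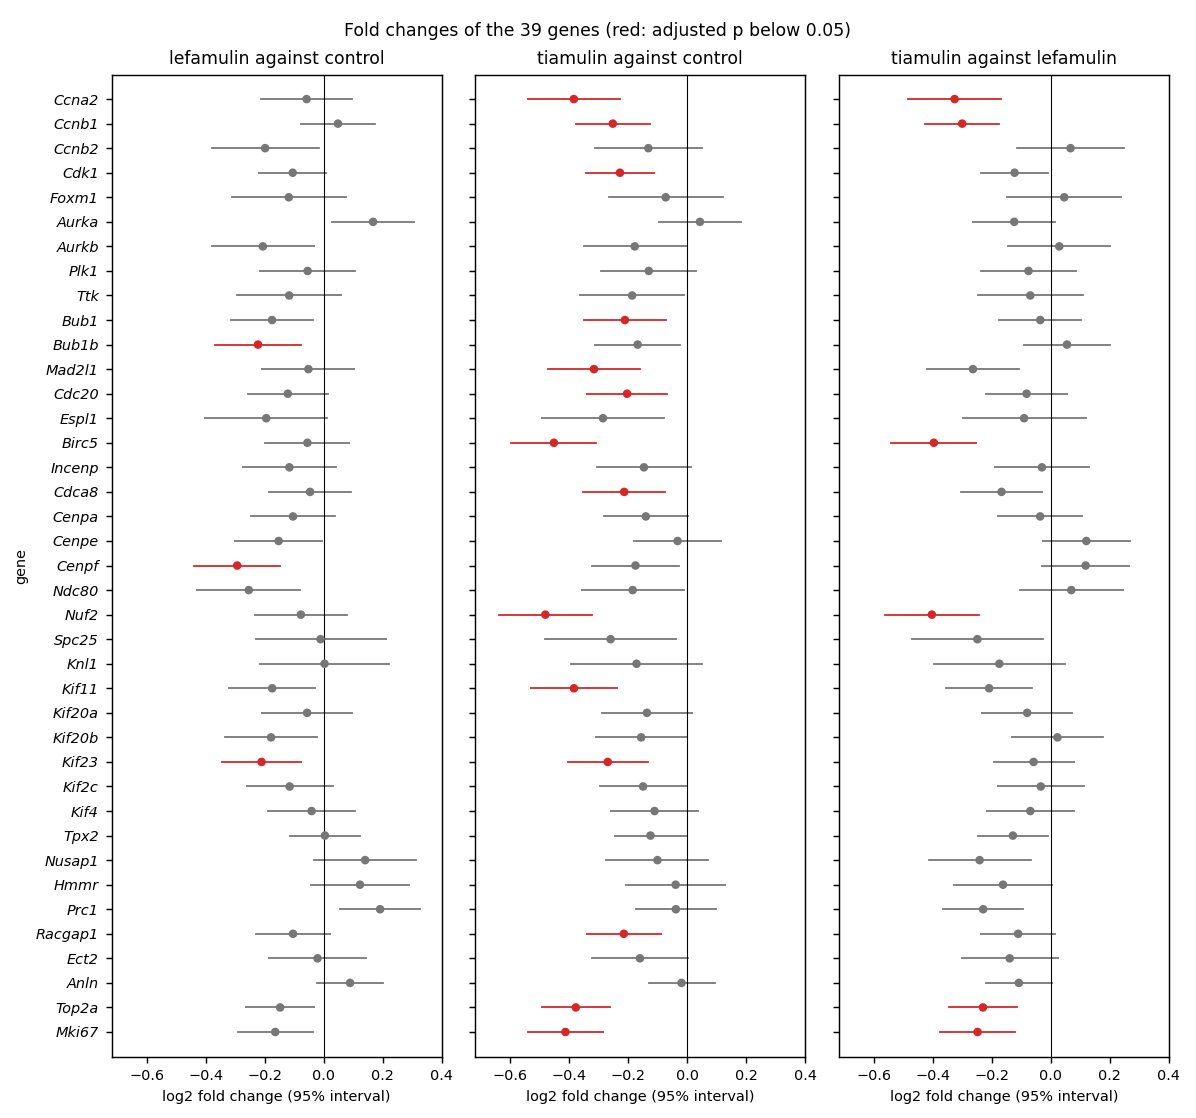
Log2 fold change (points) with its 95% interval (bars) of each of the 39 genes for lefamulin against control, tiamulin against control and tiamulin against lefamulin, red where the adjusted p was below 0.05. In the lefamulin panel 3 genes are red, in the tiamulin panel 14, and in the direct comparison 6, all to the left of 0.

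Among the 5 genes that run mitotic entry, tiamulin lowered Ccna2, Ccnb1 and Cdk1, and no gene of the group passed the test under lefamulin (7.34% and 6.00% of tested genes were lower). With the offsets Ccnb2 and Cdk1 were lower under lefamulin, and Ccnb2 also without tiamulin 2 (13.0% and 12.7% of tested genes in these fits). Cdk1, the kinase that triggers mitosis, had 205, 205 and 207 CPM in controls 1, 2 and 3, 196, 194 and 183 in the lefamulin libraries and 171, 175 and 182 in the tiamulin libraries. Both drug groups lay below all controls without overlap. Cdk1 fell by 14.7% under tiamulin (log2 fold change -0.23, SE 0.0534, adjusted p = 0.00914), and its log2 fold change under lefamulin was -0.11 (SE 0.0534, adjusted p = 0.223). Ccna2, the cyclin of S phase and G2, was at 109, 113 and 107 CPM in controls, 106, 109 and 101 with lefamulin and 76.6, 80.9 and 93.5 with tiamulin. The lefamulin libraries overlapped the controls, and all tiamulin libraries were below both groups. It fell by 23.4% under tiamulin (log2 fold change -0.39, SE 0.0730, adjusted p = 0.00226). Ccnb1, the main cyclin partner of Cdk1, had 135, 139 and 131 CPM in controls, 138, 137 and 145 with lefamulin and 119, 108 and 114 with tiamulin. It fell by 16.1% under tiamulin (log2 fold change -0.25, SE 0.0582, adjusted p = 0.00835), while its log2 fold change under lefamulin was 0.048 (SE 0.0580, adjusted p = 0.644). Foxm1, the transcription factor that activates many of the other members, overlapped between the groups, with 179, 153 and 161 CPM in controls, 148, 154 and 153 with lefamulin and 150.2, 182 and 136 with tiamulin, tiamulin 2 being the highest of the 9. Its log2 fold changes were -0.12 (SE 0.0904, adjusted p = 0.437) under lefamulin and -0.073 (SE 0.0903, adjusted p = 0.643) under tiamulin. Foxm1 was lower under tiamulin with offsets for GC content and length (log2 fold change -0.14) and without tiamulin 2 (-0.20), past the threshold in both.

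Of the 6 mitotic kinases, Aurka, Aurkb, Plk1, Ttk, Bub1 and Bub1b, Bub1 passed the test under tiamulin and Bub1b under lefamulin, and no kinase passed it in the direct comparison of the drugs. With offsets for GC content and length, and also without tiamulin 2, Aurkb, Plk1, Bub1 and Bub1b were lower under tiamulin and Aurkb, Bub1 and Bub1b under lefamulin. Of tested genes, 14.4% and 11.3% were lower under tiamulin in these fits, and 13.0% and 12.7% under lefamulin. Bub1, which marks the centromere for the checkpoint, had 89.4, 95.2 and 92.8 CPM in controls, 80.4, 79.6 and 85.6 with lefamulin and 79.5, 75.04 and 85.0 with tiamulin, with both drug groups below all controls. It fell by 13.6% under tiamulin (log2 fold change -0.21, SE 0.0648, adjusted p = 0.0381), and its log2 fold change under lefamulin was -0.18 (SE 0.0648, adjusted p = 0.092). Bub1b, which encodes BubR1 of the mitotic checkpoint complex, was at 117, 116 and 116 CPM in controls, 92.9, 100.3 and 107 with lefamulin and 107, 109 and 95.8 with tiamulin, again with both drug groups below the controls. It fell by 14.3% under lefamulin (log2 fold change -0.22, SE 0.0674, adjusted p = 0.0428), and its log2 fold change under tiamulin was -0.17 (SE 0.0673, adjusted p = 0.106). Aurka, the kinase of the centrosome and spindle poles, had 75.5, 67.8 and 67.9 CPM in controls, 81.7, 76.9 and 78.6 with lefamulin and 70.8, 74.4 and 72.3 with tiamulin. All 3 lefamulin libraries were above all controls, and the log2 fold change was 0.17 (SE 0.0648, adjusted p = 0.107). Aurka had the highest log2 fold change of the 39 genes under tiamulin, 0.043 (SE 0.0649, adjusted p = 0.714), with overlapping libraries.

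The checkpoint and anaphase genes Mad2l1, Cdc20 and Espl1 each had a lower mean under both drugs, and 2 of the 3 passed the test under tiamulin, where 7.34% of tested genes were lower. Mad2l1, the checkpoint protein that holds Cdc20 inactive, had 133, 143 and 133 CPM in controls, 133, 129 and 132 with lefamulin and 117, 95.8 and 115 with tiamulin, tiamulin 2 being the lowest of the 9. It fell by 19.7% under tiamulin (log2 fold change -0.32, SE 0.0731, adjusted p = 0.00844). Cdc20 was at 88.4, 85.4 and 90.4 CPM in controls, 86.4, 75.9 and 80.6 with lefamulin and 74.9, 76.7 and 77.8 with tiamulin, where it fell by 13.2% (log2 fold change -0.20, SE 0.0636, adjusted p = 0.0408). All 3 tiamulin libraries were below the controls, and lefamulin 1 overlapped them. For Espl1, the separase that cleaves cohesin, the log2 fold change under tiamulin was -0.29 (SE 0.0967, adjusted p = 0.0577). Espl1 passed under tiamulin with offsets (-0.35) and without tiamulin 2 (-0.39), and under lefamulin without tiamulin 2 (-0.20). Its libraries overlapped, with 87.9, 68.8 and 83.1 CPM in controls and 63.1, 74.2 and 59.3 under tiamulin.

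The chromosomal passenger complex directs Aurora B kinase to centromeres and then to the midzone. Birc5, its survivin subunit, had the second-lowest log2 fold change of the members under tiamulin in the fit of all 9 libraries without offsets. It had 94.1, 102 and 96.9 CPM in controls, 89.8, 95.3 and 97.3 with lefamulin and 72.7, 66.2 and 75.5 with tiamulin. The tiamulin libraries were well below both other groups, which overlapped, and Birc5 fell by 26.9% (log2 fold change -0.45, SE 0.0673, adjusted p = 0.000373). Cdca8, the borealin subunit, was at 76.4, 75.5 and 68.6 CPM in controls and 61.2, 65.2 and 63.7 under tiamulin, and fell by 13.8% (log2 fold change -0.21, SE 0.0646, adjusted p = 0.0353). Incenp, the scaffold subunit, did not pass under either drug in the fit of all 9 libraries without offsets, with log2 fold changes of -0.12 (SE 0.0739, adjusted p = 0.34) and -0.15 (SE 0.0739, adjusted p = 0.201) under lefamulin and tiamulin. It passed under both drugs with offsets (-0.12 and -0.21) and without tiamulin 2 (-0.12 and -0.25).

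Kinetochores tie chromosomes to spindle microtubules. Of the 7 kinetochore and centromere genes, Cenpa, Cenpe, Cenpf, Ndc80, Nuf2, Spc25 and Knl1, tiamulin lowered Nuf2 and lefamulin lowered Cenpf. With the offsets Cenpa, Cenpf, Nuf2 and Spc25 were lower under tiamulin and Cenpe, Cenpf and Ndc80 under lefamulin. Without tiamulin 2 they were Ndc80 and Nuf2 under tiamulin and again Cenpe, Cenpf and Ndc80 under lefamulin. Of tested genes, 14.4% and 11.3% were lower under tiamulin in these fits, and 13.0% and 12.7% under lefamulin. Nuf2 had 93.6, 102 and 97.8 CPM in controls, 93.3, 89.9 and 94.8 with lefamulin and 73.2, 62.0 and 74.9 with tiamulin. It fell by 28.4% under tiamulin (log2 fold change -0.48, SE 0.0739, adjusted p = 0.000469), the largest fall of the 39 in the fit of all 9 libraries without offsets, and tiamulin 2 had the lowest value. Ndc80, the partner with which Nuf2 forms 1 arm of the Ndc80 complex, had 46.1, 51.4 and 45.3 CPM in controls, 38.6, 41.0 and 40.1 with lefamulin and 38.0, 43.9 and 43.6 with tiamulin. Both drug groups were below all controls, with log2 fold changes of -0.25 (SE 0.0812, adjusted p = 0.0533) and -0.19 (SE 0.0810, adjusted p = 0.139) under lefamulin and tiamulin, neither past the threshold. Ndc80 passed under lefamulin with offsets, in the fit of lefamulin and control alone and without tiamulin 2, and under tiamulin without tiamulin 2 (-0.22). Cenpf, a large protein of the outer kinetochore, was at 119, 137 and 129.7 CPM in controls, 104, 99.9 and 110.3 with lefamulin and 117, 107 and 117 with tiamulin. It fell by 18.4% under lefamulin (log2 fold change -0.29, SE 0.0685, adjusted p = 0.0113), the largest fall of the 39 genes there without offsets. With these offsets Cenpf was at -0.24, and Ndc80 (-0.28), Ccnb2 (-0.25) and Kif23 (-0.24) were as low or lower. Its log2 fold change under tiamulin without offsets was -0.18 (SE 0.0683, adjusted p = 0.0963). Knl1, the scaffold that recruits Bub1, overlapped between all groups, with log2 fold changes of 0.0026 (SE 0.103, adjusted p = 0.99) and -0.17 (SE 0.103, adjusted p = 0.289).

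The 6 kinesins, Kif11, Kif20a, Kif20b, Kif23, Kif2c and Kif4, had log2 fold changes below 0 under both drugs. Kif11, the motor that pushes spindle poles apart, had 215, 221 and 220.0 CPM in controls, 178, 202 and 201 with lefamulin and 167, 155 and 181 with tiamulin. Both drug groups lay below the controls. Kif11 fell by 23.4% under tiamulin (log2 fold change -0.38, SE 0.0681, adjusted p = 0.00137), and its log2 fold change under lefamulin was -0.17 (SE 0.0679, adjusted p = 0.108). Kif23, the motor of the central spindle, passed the test under each drug, in comparisons that share the controls. It had 127, 133 and 133 CPM in controls, 111, 114 and 114 with lefamulin and 106, 102 and 118 with tiamulin, and fell by 13.6% under lefamulin (log2 fold change -0.21, SE 0.0630, adjusted p = 0.0409) and by 17.1% under tiamulin (log2 fold change -0.27, SE 0.0630, adjusted p = 0.00905). The other 4 kinesins had log2 fold changes from -0.18 to -0.041 with lefamulin and from -0.16 to -0.11 with tiamulin. With the offsets all kinesins but Kif4 were lower under tiamulin, and without tiamulin 2 all but Kif4 and Kif20b. Kif11, Kif20b and Kif23 were lower under lefamulin in both of these fits. Of tested genes, 14.4% and 11.3% were lower under tiamulin in these fits, and 13.0% and 12.7% under lefamulin.

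The 7 spindle and cytokinesis genes, Tpx2, Nusap1, Hmmr, Prc1, Racgap1, Ect2 and Anln, were the group whose median was above 0 under lefamulin, 0.089 on the log2 scale, against -0.10 under tiamulin. None of the 7 passed the test under lefamulin, with or without offsets, and without tiamulin 2 Prc1 was higher. Prc1, which bundles the microtubules of the spindle midzone, had 95.9, 94.3 and 95.2 CPM in controls, 106, 106 and 114 with lefamulin and 87.3, 99.1 and 91.4 with tiamulin. All 3 lefamulin libraries were above all controls, and the log2 fold change of Prc1, 0.19 (SE 0.0629, adjusted p = 0.0604), was the highest of the 39 under lefamulin. Anln, the anillin that organizes the contractile ring, was at 183, 188 and 189.8 CPM in controls, 192, 206 and 198 with lefamulin and 182, 183 and 188 with tiamulin, with log2 fold changes of 0.089 (SE 0.0522, adjusted p = 0.295) and -0.020 (SE 0.0523, adjusted p = 0.843). Nusap1 and Hmmr also had values above 0 under lefamulin, 0.14 (SE 0.0803, adjusted p = 0.282) and 0.12 (SE 0.0781, adjusted p = 0.341). Racgap1, the partner of Kif23 in the centralspindlin complex, passed under tiamulin, where it fell by 13.9% (log2 fold change -0.22, SE 0.0587, adjusted p = 0.0209). Its libraries were at 207, 201 and 213 CPM in controls, 188, 195 and 194 with lefamulin and 173, 192 and 169 with tiamulin, both drug groups below the controls. Tpx2 and Ect2 were also lower under tiamulin with offsets, and Tpx2 without tiamulin 2 (14.4% and 11.3% of tested genes in these fits).

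Top2a and Mki67, the members with the most counts, fell under tiamulin with the 2 lowest p-values of the 39 genes in the fit of all 9 libraries without offsets. Top2a had 686, 732 and 724 CPM in controls, 623, 647 and 663 with lefamulin and 566, 518 and 564 with tiamulin. The 3 groups did not overlap and stood in this order. It fell by 23.1% under tiamulin (log2 fold change -0.38, SE 0.0537, adjusted p = 0.000255), and its log2 fold change under lefamulin was -0.15 (SE 0.0536, adjusted p = 0.0862). Mki67 had 458, 473 and 477 CPM in controls, 385, 418 and 452 with lefamulin and 346, 363 and 347 with tiamulin, in the same order and again without overlap. It fell by 24.9% under tiamulin (log2 fold change -0.41, SE 0.0596, adjusted p = 0.000284), against -0.16 (SE 0.0594, adjusted p = 0.0848) on the log2 scale under lefamulin. With offsets, and also without tiamulin 2, both were lower under lefamulin too (13.0% and 12.7% of tested genes in these fits).

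The direct comparison set the 2 antibiotics, alike in core and unlike in side chain, side by side at the same dose by mass and the same time. It is the 1 pair of compounds that could be compared. Tiamulin gave lower levels than lefamulin for 6 of the 39 genes, Birc5, Nuf2, Ccnb1, Ccna2, Top2a and Mki67, and higher levels for none, while 2.05% of tested genes were lower and 2.85% higher. All 3 tiamulin libraries lay below all 3 lefamulin libraries for 15 genes, as for 12.9% of tested genes. The median log2 fold change was -0.11, against 0.0031 over all tested genes, with 31 values below 0. An unadjusted p below 0.05 was found for 14 lower genes and for no higher gene, and for 9.96% and 11.6% of tested genes. None of the 39 had an absolute log2 fold change above 1, which 0.227% of tested genes passed. The log2 difference of Birc5 was -0.40 (95% interval -0.54 to -0.25, adjusted p = 0.00471), and Nuf2 differed by -0.40 (95% interval -0.56 to -0.25, adjusted p = 0.00716). Ccnb1 differed by -0.30 (95% interval -0.43 to -0.18, adjusted p = 0.00969) and Ccna2 by -0.33 (95% interval -0.48 to -0.17, adjusted p = 0.0213). Top2a and Mki67 had smaller differences, -0.23 (95% interval -0.35 to -0.12, adjusted p = 0.026) and -0.25 (95% interval -0.38 to -0.12, adjusted p = 0.0294), and for both the lefamulin libraries lay between the controls and the tiamulin libraries.

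**Figure D4:**
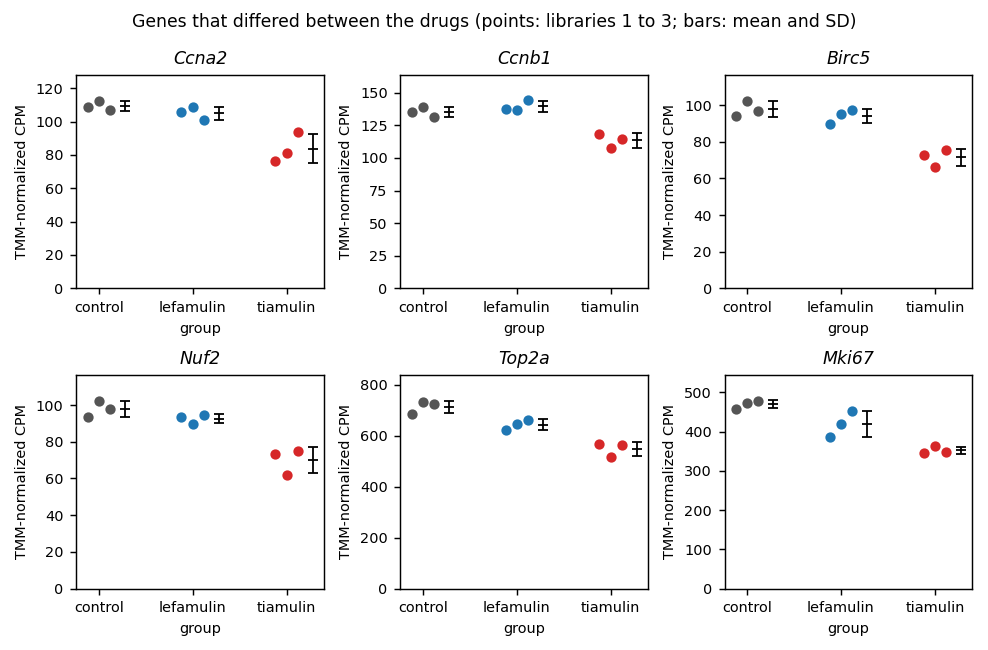
TMM-normalized CPM, on axes from 0, of the 6 genes that differed between the drugs, in each library (points, in the order 1 to 3) with the group mean and SD (bars). For each gene all 3 tiamulin points lie below all 3 lefamulin points.

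For the other 33 genes the direct comparison did not pass, and 95% intervals of the log2 difference ran from -0.47 for Spc25 to 0.27 for Cenpe, 25 of them holding 0. Cenpe, the motor that carries chromosomes to the spindle equator, and Cenpf had the highest differences, 0.12 (95% interval -0.027 to 0.27, adjusted p = 0.334) and 0.12 (95% interval -0.029 to 0.26, adjusted p = 0.343). A p above the threshold does not show that the drugs act alike on these genes. With offsets for GC content and length 13 genes were lower under tiamulin than under lefamulin, against 6.83% of tested genes, and 10 were when tiamulin 2 was left out, the 6 among them, against 3.86%. The count was 3 without lefamulin 2 and 1 (Birc5) without lefamulin 3. Over all genes 206 and 204 passed in these fits, against 298 lower and 413 higher with all 9 libraries. Birc5 alone kept its call when any single library was left out. Ccnb1 and Nuf2 lost theirs only without lefamulin 3, with adjusted p-values of 0.0701 and 0.0519. Ccna2 lost its call when any 1 lefamulin library or tiamulin 1 was left out (0.0623 to 0.11), Top2a when control 3 or any 1 lefamulin library was (0.0576 to 0.136), and Mki67 when control 3, lefamulin 2 or 3 or tiamulin 1 or 3 was (0.0554 to 0.155).

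The 39 genes were also summarized by library. The median deviation of a library from the control mean, on the log2 CPM scale, lay between -0.017 and 0.023 in the controls, between -0.096 and -0.089 in the lefamulin libraries and between -0.22 and -0.17 in the tiamulin libraries, so that the 3 groups were separate. Tiamulin 2 had the highest median of its group, -0.172, against -0.218 in tiamulin 1 and -0.176 in tiamulin 3. Its single genes were spread more widely, with middle quartiles from -0.35 to -0.066 against -0.29 to -0.094 in tiamulin 1 and -0.27 to -0.12 in tiamulin 3. The number of genes below their control mean was 25, 14 and 16 of 39 in the controls themselves, 34, 29 and 28 of 39 in the lefamulin libraries and 37, 34 and 35 in the tiamulin libraries. Within groups, the SD of log2 CPM ran from 0.036 for Anln to 0.15 for Knl1, with a median of 0.085 over the 39 genes.

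**Figure D5:**
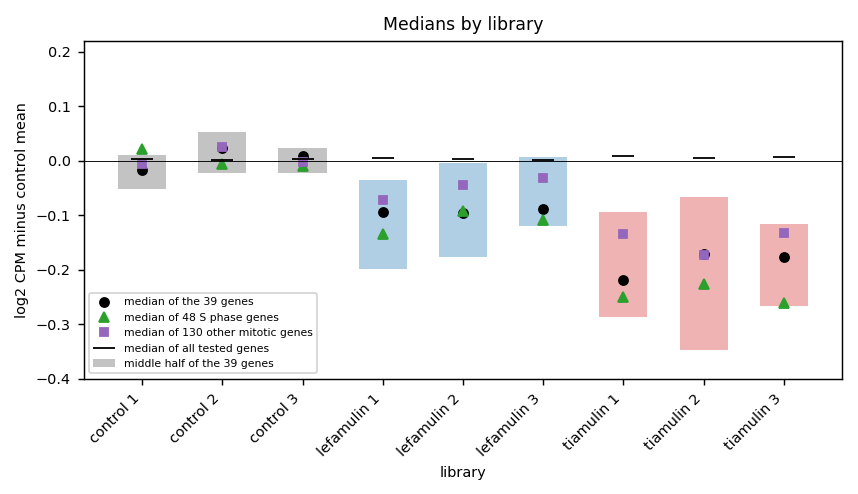
Median log2 CPM minus the control mean in each library for the 39 genes (points, with a box over their middle quartiles), for 48 S phase genes (triangles), for 130 other mitotic genes (squares) and for all tested genes (dashes near 0). The medians of the 39 genes fall from the controls to lefamulin (-0.096 to -0.089) and tiamulin (-0.22 to -0.17).

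Further mitotic genes were listed by their role, 131 in all, of which 130 were tested. Values are log2 fold changes ± SE. Tiamulin lowered 26 and raised none of them, with a median log2 fold change of -0.14, against 7.34% lower and 9.08% higher of all tested genes and their median of 0.0034. Lefamulin lowered 12 and raised 3, with a median of -0.051, against 6.00% and 7.09% and a median of -0.0018. In the direct comparison 5 were lower and none higher, against 2.05% and 2.85% of tested genes. With offsets for GC content and length 56 were lower and none higher under tiamulin (14.4% and 13.1% of tested genes), 33 lower and 5 higher under lefamulin (13.0% and 11.6%) and 20 lower and 3 higher in the direct comparison (6.83% and 7.06%). The values named are those without offsets. The kinetochore subunit Spc24, whose partner Spc25 is a member, was the lowest among those that passed under tiamulin, at -0.80 ± 0.120, with 261, 223 and 254 counts in controls and 119, 135 and 146 under tiamulin. Pmf1, of the Mis12 complex, differed by -0.42 ± 0.0711 and the centromere protein gene Cenps by -0.69 ± 0.102. Both lay below all controls in each tiamulin library. Pbk and Melk, kinases of proliferating cells, differed by -0.58 ± 0.0900 and -0.40 ± 0.0672, and Fbxo5, the Emi1 inhibitor of the anaphase-promoting complex, by -0.49 ± 0.0836. These too were lower in every tiamulin library than in any control. Under lefamulin the condensin subunit Ncapd2 (-0.33 ± 0.0589), the spindle pole genes Numa1 (-0.42 ± 0.0853) and Aspm (-0.33 ± 0.0694) and the motor gene Kif15 (-0.36 ± 0.0859) were lower. The genes that rose under lefamulin were Cdkn3, a phosphatase of Cdk kinases (0.69 ± 0.160), Haus2 of the augmin complex (0.39 ± 0.0725) and Mis12 of the kinetochore (0.27 ± 0.0672). Cdkn3 was scarce, with 79, 113 and 83 counts in controls and 124, 134 and 153 under lefamulin.

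Of 48 tested genes of DNA replication and S phase, the phase before G2, 23 were lower, none higher and 25 did not pass the test under tiamulin, with a median log2 fold change of -0.22, against 7.34% of all tested genes lower and a median of 0.0034. Of the 48, 9 were lower and 1 higher under lefamulin, with a median of -0.10, against 6.00% lower, 7.09% higher and a median of -0.0018. With the offsets 33 were lower and none higher under tiamulin (14.4% and 13.1% of tested genes), 16 lower and 3 higher under lefamulin (13.0% and 11.6%) and 17 lower and none higher in the direct comparison (6.83% and 7.06%). The difference between these lists was not tested. Rrm2, the regulatory subunit of ribonucleotide reductase, had 1744, 1623 and 1733 counts in controls, 1397, 1617 and 1676 with lefamulin and 1001, 1002 and 995 with tiamulin, a log2 fold change under tiamulin of -0.68 ± 0.0667. The thymidylate synthase gene Tyms differed by -0.66 ± 0.0817, Clspn, the claspin of replication forks, by -0.53 ± 0.0693, and the G1/S cyclin Ccne2 by -0.67 ± 0.0931. These are larger drops than that of any of the 39 genes. Under lefamulin Uhrf1 (-0.36 ± 0.0743), Mcm5 (-0.33 ± 0.0735) and Mcm7 (-0.22 ± 0.0528) were lower, and the primase subunit gene Prim1 was higher (0.25 ± 0.0630). In the direct comparison 9 of the 48 were lower and none higher under tiamulin, against 2.05% and 2.85% of tested genes, led by Rrm2 (-0.67 ± 0.0669), Ccne2 (-0.89 ± 0.0930) and Ccne1 (-0.62 ± 0.0865).

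Of 19 regulators of these genes, subunits of DREAM, MuvB and the E2F family, tiamulin lowered 3 and raised 1, against 7.34% lower and 9.08% higher of all tested genes. Lefamulin lowered 1 and raised 1, against 6.00% and 7.09%. With the offsets 7 were lower and 2 higher under tiamulin (14.4% and 13.1%) and 4 lower and 1 higher under lefamulin (13.0% and 11.6%). The repressors E2f8 (-0.55 ± 0.0877) and E2f7 (-0.46 ± 0.0789) and the activator E2f3 (-0.26 ± 0.0631) were lower under tiamulin, and Rb1, the retinoblastoma gene, was higher (0.36 ± 0.110). Mybl2, which encodes B-Myb, had log2 fold changes of -0.084 ± 0.0990 under lefamulin and -0.23 ± 0.0993 under tiamulin, and Lin9, of the MuvB core, of 0.018 ± 0.0686 and -0.10 ± 0.0688, and neither gene passed the test. Under lefamulin Tfdp2, a partner of E2F proteins, was lower (-0.29 ± 0.0818) and E2f5 higher (0.36 ± 0.109).

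Of 11 tested G1 cyclins, kinases and their inhibitors, tiamulin lowered 3 and raised 1 (7.34% and 9.08% of all tested genes), and lefamulin lowered 2 and raised none (6.00% and 7.09%). With the offsets 5 were lower and 1 higher under tiamulin (14.4% and 13.1%) and 5 lower and none higher under lefamulin (13.0% and 11.6%). Ccnd1, the cyclin D1 gene, was lower under both drugs, at -0.23 ± 0.0484 with lefamulin and -0.23 ± 0.0484 with tiamulin, as was the inhibitor gene Cdkn2c (-0.50 ± 0.105 and -0.59 ± 0.106). Cdkn2b, which encodes the inhibitor p15, was higher under tiamulin (0.27 ± 0.0817) and higher than under lefamulin (0.50 ± 0.0825). Cdkn1a, the p53 target that encodes p21, did not pass under either drug, with 3430, 3193 and 3476 counts in controls, 3052, 3581 and 3596 with lefamulin and 3293, 3652 and 3542 with tiamulin, and log2 fold changes of 0.13 ± 0.0652 and 0.14 ± 0.0651.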

How the data were processed

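RNA-Seq libraries of Hepa1-6 cells, 3 control, 3 lefamulin and 3 tiamulin, were grouped by their sample labels. The authors deposited whole read counts per gene and FPKM values for 56748 genes. The submitters' processing notes name CASAVA 1.8, fastp, HISAT2 2.0.5, featureCounts 1.5.0-p3 and DESeq2 1.20.0 with mm10, but only 1435 of 52036 nuclear genes and 0 of the 39 had their GRCm38 start and end. The deposited positions were therefore not printed, and promoter positions are those of RefSeq GRCm38.p6. Whether counting used the strand of the reads is not given in the sources used here, so that overlapping genes may share reads. No count column was left without a sample.

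Counts were normalized by TMM, filtered with filterByExpr and compared by the robust quasi-likelihood test of edgeR 4.0.16 (R 4.3.3) with group as the only term over all 9 libraries and Benjamini-Hochberg adjustment over 14510 genes. CPM values are TMM-normalized. FPKM served for levels between genes. GC content came from the longest transcript in the reference annotation and was known for 14242 tested genes. The procedure was tested on simulated data. Alternatives were DESeq2 size factors, DESeq2 1.42.0, other filters, the groups compared alone, a replicate block, GC and length offsets, limma 3.58.1 on log2(FPKM + 1) and log2(FPKM + 0.1), and leaving out each library.

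The 39 genes, the other lists and the tests were chosen with earlier results of these data known. Named were members past the threshold, those with the lowest p or the most extreme fold changes or levels, Cdk1, Ccnb1, Foxm1, Mki67 and Top2a, at most 4 passing genes of each other list per comparison, and Cdkn1a, Mybl2 and Lin9. Other names were chosen after their values were seen.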

Additional observations from a re-analysis of the deposited data

Results flagged for a closer look

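The direct comparison of the drugs, a test of the difference between their effects, called 6 of the 39 genes, all lower under tiamulin than under lefamulin (edgeR, adjusted over 14510 genes, n = 3 libraries per group). Of all tested genes, 2.05% were lower and 2.85% higher. The log2 differences were -0.33 for Ccna2, -0.30 for Ccnb1, -0.40 for Birc5, -0.40 for Nuf2, -0.23 for Top2a and -0.25 for Mki67. For each of the 6 genes all 3 tiamulin libraries were below all 3 lefamulin libraries, as for 12.9% of tested genes. The 6 genes were picked by the test on these same libraries. Only the call of Birc5 held when any of the 9 libraries was left out. The groups hold 3 libraries each, which is too few to look for single outlying libraries by gene.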

How the results depend on the processing

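No median and no value of a gene past the threshold changed sign under any alternative. Of all 39 values, 35 for lefamulin, 36 for tiamulin and 32 for the direct comparison kept their sign in every alternative, and those that did not, such as Knl1 and Tpx2 under lefamulin, Foxm1 under tiamulin and Bub1 in the direct comparison, were not past the threshold. The medians of the 39 genes stayed within the spread between libraries under each alternative except that, without single libraries, the tiamulin median ran from -0.20 to -0.16. Counts of genes past the threshold varied more. For lefamulin against control, 3 in the fit of all 9 libraries, the count was 13 with these 2 groups alone (2 of them higher), 14 with offsets for GC content and length, 1 by limma on log2(FPKM + 1) or log2(FPKM + 0.1) and 0 by limma without a filter, and it ran from 0 to 16 without single libraries, with 0 to 2 higher. For tiamulin against control, 14, it was 28 with the offsets, 8 by limma without a filter, and ran from 10 to 24 without single libraries. For tiamulin against lefamulin, 6, it was 3 with these 2 groups alone, 13 with the offsets, 0 by limma without a filter, and ran from 1 to 10 without single libraries. With DESeq2 the counts were 4, 15 and 8, given here without its calls over all genes. Calls over all genes moved too. For lefamulin they were 1900, then 3510 with the 2 groups alone, 3568 with the offsets, and 1445, 1434 and 783 by limma. For tiamulin they were 2383, then 3987 with the offsets and 1166 by limma without a filter, and for the direct comparison 711, then 280, 2015 and 103 with the 2 groups alone, the offsets and limma without a filter.

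Libraries of different groups share a replicate number but did not deviate together, with correlations over 10095 genes of -0.042, -0.015 and 0.011 for lefamulin and control, -0.33, -0.48 and 0.024 for tiamulin and control and 0.050, -0.061 and -0.091 for tiamulin and lefamulin. The correlation of tiamulin 2 with control 1, which differ in number, was 0.49. The deviations also carry trends with GC content, so these correlations cannot decide whether a number marks a shared culture. With the replicate number as a block the counts were 1, 10 and 3 (1304, 1811 and 263 over all genes), and with the block and the offsets 12, 27 and 10 (3260, 3708 and 1720).

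Of the combinations of a called gene and an alternative, 363 kept the call and 97 lost it. Of the genes past the threshold under tiamulin in the fit of all 9 libraries without offsets, Cdc20 fell by 13.2%, the least. Espl1 and Spc25, at -0.29 and -0.26 on the log2 scale, did not pass in that fit and passed with the offsets, at -0.35 and -0.23, from the same libraries. Without tiamulin 2 Espl1 passed at -0.39 and Spc25 did not, at -0.13. The cause of the dependence on tiamulin 2 was not tested.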
